A study of Mus musculus with 9 samples.

Results

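The resting transcriptome of the kidney was described in the 3 ground control samples of a mouse series of 9. Genes with at least 1 FPKM (reads per kilobase of gene, divided by a constant of the library) in all 3 samples were taken as expressed. There were 9467 such genes of 54532 in the table, or 17.4%. The ground controls were untreated male c57BL/6j mice aged 4 months, and the series sets them beside hindlimb-unloaded mice given vehicle or 4PBA to study endoplasmic reticulum stress and renal pathology. Those other 6 samples were not used here, so no groups were compared and every value below is a description of 1 group of 3. RNA came from about 30 mg of kidney per sample, was selected on poly-T beads and was sequenced as strand-marked libraries. The samples are called GC1, GC2 and GC3. The labels give 3 replicates and do not state that each is 1 animal, so the SDs below measure the spread between these samples, which may be in part technical.

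The kidney filters blood in the glomerulus, where podocytes and endothelium form the filter, and returns most of the filtrate along the proximal tubule. The thick ascending limb then reabsorbs salt without water, and the distal convoluted tubule, connecting tubule and collecting duct adjust sodium, potassium, calcium, acid and water under hormonal control. The proximal tubule makes up the bulk of the cortex and is rich in mitochondria. Whole tissue RNA mixes all of these cells, so fewer cells of a type and less RNA per cell cannot be told apart in any level given here.

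One library stood apart. Totals of 13053267, 15141784 and 11485217 reads were assigned to genes in GC1, GC2 and GC3, of which the mitochondrial genome took 18.9%, 14.8% and 49.7%. That left 10592475, 12893802 and 5780141 reads from nuclear genes. Ribosomal RNA genes took 0.0184% and 0.0230% of reads in GC1 and GC2 but 0.438% in GC3. Over the 8793 expressed protein-coding genes of the nuclear genome, the correlation of log2 FPKM across genes was 0.97 between GC1 and GC2, 0.94 between GC1 and GC3 and 0.92 between GC2 and GC3 (Pearson; genes are not independent replicates). Between GC1 and GC2, 190 of these genes (2.16%) differed by more than a factor of 2, against 714 (8.12%) between GC1 and GC3 and 1119 (12.7%) between GC2 and GC3. What set GC3 apart was not tested. Most list medians averaged over the 3 samples as deposited are also given without it. Which sample is lowest or highest for a gene depends on the scaling: the median log2 difference of GC3 from the mean of GC1 and GC2 over these 8793 genes was -0.05 as deposited, -0.59 after each library was rescaled to a common total over genes outside the mitochondrial genome and -1.27 after rescaling over all genes. Levels below are on the deposited scale. At the median gene length, 1 FPKM stood for 78.8, 97.0 and 44.3 reads across GC1, GC2 and GC3, and a count of 0 allows up to 3 reads, which covers counting error only.

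Most expressed genes were expressed at a low level, and a handful carried much of the FPKM summed over protein-coding nuclear genes. Of the 9467 genes, 8806 were protein coding (13 of them mitochondrial), 353 were pseudogenes and 253 belonged to long noncoding classes. The 8793 protein-coding nuclear genes, 39.9% of the 22033 in the table, were ranked by mean FPKM and are called ranked genes below. Their median was 5.10 FPKM, with 71.3% under 10 FPKM, 281 at 100 or more and 10 at 1000 or more. The gene at the 90th percentile had 31.4 FPKM and that at the 99th had 235 FPKM, while the highest had 52225. Leaving out GC3 raised the number of expressed genes to 9983. Another 2943 genes reached 1 FPKM in some but not all samples, and 32323 were at 0 in all 3. The genes nearest the threshold had a lowest value of 1.00007 FPKM just inside it and 0.998678 just outside.

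**Figure D1:**
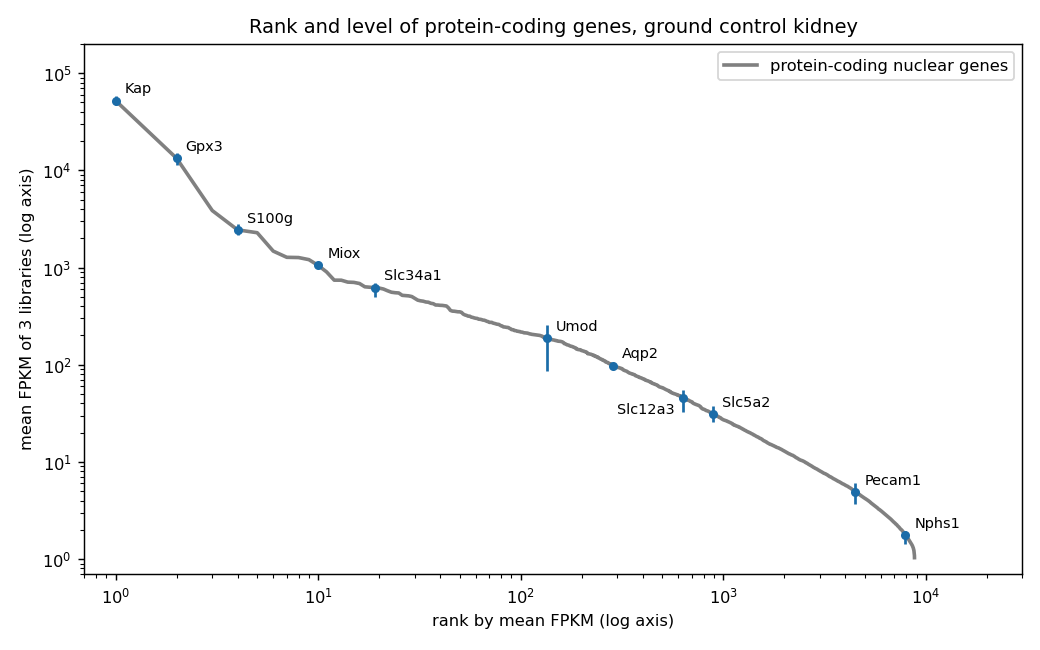
Mean FPKM of 3 libraries (log axis) against rank (log axis) for the 8793 ranked genes, with the lowest and highest library as bars for named genes of different nephron segments. The curve falls from 52225 FPKM for Kap to about the threshold of 1, and the named segment genes are spread over its whole length.

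Kap, the kidney androgen-regulated protein that proximal tubule cells make under androgen, was the most abundant ranked transcript in every sample (ENSMUSG00000032758; mm10 chromosome 6, 133849851 to 133853762). It had 51019.7, 47235 and 58419 FPKM in GC1, GC2 and GC3 (mean 52225 ± 5688, SD, n = 3). The samples lay close together for this gene, with GC3 highest. Kap alone held 21.9%, 20.7% and 26.3% of the FPKM summed over ranked genes. The 10 most abundant genes held 35.4% ± 3.77 of that sum, and 33.2% without GC3. The number of genes needed to reach 50% of the sum was 100, 124 and 65 across GC1, GC2 and GC3. Shares depend on the measure. For the 10 most abundant the share was 16.1% in reads outside the mitochondrial genome and 26.2% by transcript length, described at the end. In reads, Kap had 701903, 799887 and 452216 of the nuclear totals given above.

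Gpx3, the glutathione peroxidase that the kidney secretes into plasma (ENSMUSG00000018339; chromosome 11, 54902453 to 54910377), held rank 2 in all 3 samples with 13541, 11440.1 and 15009 FPKM. Fth1, the heavy chain of the iron store ferritin, held rank 3 with 4677, 3929.7 and 2973 FPKM and was lowest in GC3. Next came S100g, the calcium-binding calbindin-D9k of the distal nephron, with 2307, 2187 and 2837 FPKM. Klk1, the tissue kallikrein that the connecting tubule releases into urine, held rank 5 with 2072, 2114 and 2665 FPKM. These first 5 genes held the same ranks in GC1, GC2 and GC3.

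The remaining genes of the first 10 changed places between samples. Gpx1, the cytosolic glutathione peroxidase, had 1477 ± 377 FPKM and Spink1, a trypsin inhibitor, 1275 ± 223 FPKM. Rplp1, a protein of the ribosomal stalk, had 1207 ± 165 FPKM. Miox, the oxygenase that opens the myo-inositol ring and is found almost only in kidney, had 1090.1, 1071 and 995 FPKM and was the most even of the 10 (mean 1052 ± 50.4). Across the samples 12 genes were ever among the first 10 and 8 were so in all 3. For the first 100, 131 genes entered the list in any sample and 73 in all 3.

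Ranks 11 to 25 mixed respiratory subunits, iron and redox genes and proximal tubule enzymes. Complex IV of the respiratory chain gave Cox6a1 (902 ± 171 FPKM), Cox8a (551 ± 133) and Cox4i1 (547 ± 73.5), and complex III gave Uqcr10 (557 ± 27.9). Usmg5, a small subunit of ATP synthase, had 627 ± 139 FPKM. Ftl1, the ferritin light chain, had 742 ± 73.4 FPKM, and the peroxiredoxin Prdx5 634 ± 43.7. Translation was represented by the elongation factor Eef1a1 (842, 902 and 479.7 FPKM, lowest in GC3), by Rpl36 (615 ± 111) and by Tpt1 (685 ± 32.9). The proximal tubule contributed Acy3, an aminoacylase that acts on mercapturic acids, with 708 ± 137 FPKM and Akr1c21, an aldo-keto reductase of steroids, with 704 ± 102. Slc34a1, the sodium-phosphate cotransporter of the brush border, had 674, 497 and 694 FPKM and was lowest in GC2. The aspartic protease Napsa had 601 ± 98.9 FPKM and Guca2b, the precursor of uroguanylin, 695, 418 and 619, again lowest in GC2. Of all genes ever among the first 25 in a sample, which numbered 30, 19 were there in all 3.

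**Figure D2:**
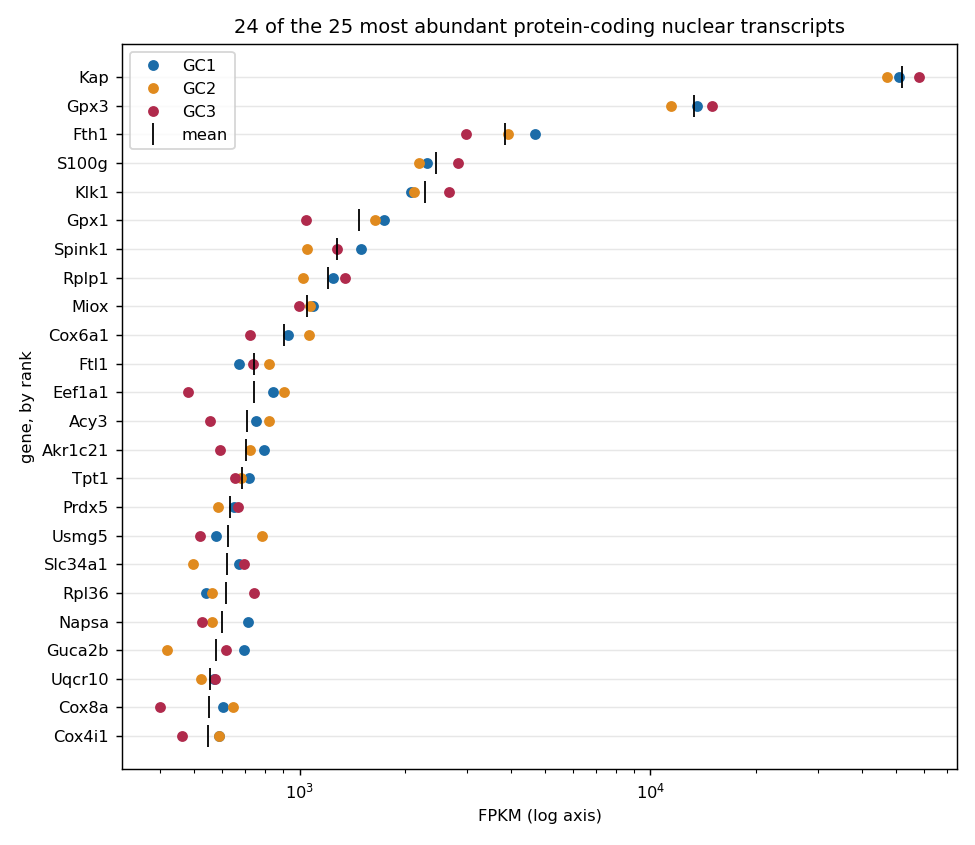
FPKM (log axis) in each library of 24 of the 25 most abundant protein-coding nuclear genes, with the mean as a bar. Kap and Gpx3 stand above all others in each library, and from rank 6 on the ranges of neighbouring genes overlap.

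Promoters of 8 abundant or segment genes were examined. Those of Kap and Miox are shown because they were the 2 that held a TATA box in the last 120 bases. Gpx3 held a GC box alone, and Klk1, S100g, Slc34a1, Slc22a2 and Umod held none of the letters searched in that stretch. The following are the 120 bases before the RefSeq start of each gene (GRCm38.p6, the same assembly as mm10), 5′ to 3′ on the gene's strand. Capitals mark TATAAA (the TATA box) and GGGCGG (the GC box), on either strand.
Kap, chr6:133853668-133853787, minus strand: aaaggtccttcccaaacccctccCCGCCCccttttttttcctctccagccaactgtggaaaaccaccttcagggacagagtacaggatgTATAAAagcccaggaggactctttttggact
Miox, chr15:89334353-89334472, plus strand: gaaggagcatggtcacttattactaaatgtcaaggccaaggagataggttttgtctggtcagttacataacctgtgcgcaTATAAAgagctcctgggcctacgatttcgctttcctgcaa

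TATAAA lay 31 to 26 bases before the start of Kap and 40 to 35 before that of Miox, and a GC box lay 97 to 92 bases before the start of Kap. These RefSeq starts lie 95 bases (Kap) and 75 bases (Miox) from the 5′ ends that the deposited table gives. For Gpx3 and Slc34a1 the distance was larger, 401 and 1461 bases. RefSeq promoters were matched for 34 of 43 expressed genes on the proximal tubule lists used below, and the 250 bases before the start were searched on both strands. No limit was set on the distance to the deposited 5′ end, which reached 12229 bases for Slc6a19 on these lists. TATAAA was present in 11.8% of the proximal tubule promoters, 12.3% of 73 promoters of the 100 most abundant genes, 6.27% of 7013 ranked genes and 11.9% of 16493 protein-coding genes. The GC box was present in 41.2% of promoters in the proximal tubule lists, 41.1% in the 100 most abundant genes, 61.5% in ranked genes and 44.5% in all. CAAAGTCC, a core of the HNF4 recognition sequence, was found in 1 of the 34 proximal tubule promoters, in 1.25% of ranked genes and in 1.31% of all. Such matches are letters in a window, not evidence of binding.

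Outside the protein-coding nuclear genes, the highest value belonged to Gm23935, a gene of 57 bases annotated as a miRNA. Its sequence in GENCODE, shown because this short feature outranked Kap on mean FPKM, is the following.
Gm23935, chr16:11144125-11144181, plus strand: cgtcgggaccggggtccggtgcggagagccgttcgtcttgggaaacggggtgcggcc

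Gm23935 had 14891, 16978 and 137230 FPKM, so that GC3 alone placed it above Kap. The same 57 letters belong to 2 other annotated genes, Gm24245, which was at 0 in all samples, and Gm24270, with 51.4, 26.4 and 410.2 FPKM, and how reads were divided among the copies is not given in the sources used here. Next by mean FPKM among genes of other classes outside the mitochondrial genome were 4 pseudogenes on chromosome 1 that copy mitochondrial genes. Gm28661 matched mt-Co2 at all 681 bases, Gm10925 matched mt-Atp6 at 678 and Gm28437 matched mt-Co3 at 783. Gm29216 matched mt-Co1 at 482 of 483 aligned bases. Gm28661 had 1258, 1209 and 3319 FPKM, and as reads from such copies and from the mitochondrial genome share their letters, the values of these 4 are uncertain. CT010467.1, annotated as ribosomal RNA and named here after its values were seen, had 49.9, 58.9 and 1861 FPKM. Like Gm23935 it was high in GC3, the library with the high mitochondrial share, and the part of any of these in the other was not tested.

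The leading mitochondrial messages came next to Kap in mean FPKM and exceeded it in GC3. The 13 protein-coding genes of the mitochondrial genome were led by mt-Cytb, the cytochrome of complex III, with 25808, 18437 and 93094 FPKM. mt-Co1, a core subunit of complex IV, had 19132, 14409.7 and 99096 FPKM and mt-Nd1, of complex I, 18609, 15590.0 and 80242. All 13 were highest in GC3. The lowest, mt-Atp8, had 3.53, 1.84 and 5.82 FPKM.

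The nuclear genes of the respiratory chain were nearly all expressed and sat high in the ranking. For complex I, 46 of 46 Nduf genes were expressed, with a median rank of 356.5, and Ndufa1 led them with 356 ± 59.4 FPKM. All 8 Uqcr genes of complex III were expressed at a median rank of 108.5. Of 18 Cox genes 13 were expressed, and of 18 Atp5 genes of ATP synthase 17 were. GC3 was lowest for 28 of the 46 Nduf genes and 10 of the 13 expressed Cox genes. It was also lowest for 44.3% of all ranked genes, 61.2% of the 2523 with a mean of 10 FPKM or more and 65.5% of the 281 with 100 or more, so that the Nduf share was that of other genes of such levels. Ribosomal protein genes, 79 of 82 expressed, held 5.16% ± 0.07 of the ranked FPKM in each sample, and their median spread between samples was an SD of 0.18 in log2. Because ribosomal protein genes have many processed pseudogenes, their single values are uncertain.

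Genes that dispose of peroxides were abundant. All 19 antioxidant genes were expressed, 14 of them in the top 10% of ranked genes, with a list median of 117 ± 27.7 FPKM (130.3 without GC3). After Gpx3, Gpx1 and Prdx5 came Gpx4, which removes lipid peroxides, with 362 ± 33.96 FPKM, then the glutathione transferase Gstm1 with 292 ± 51.5 and the peroxisomal catalase Cat with 209, 261 and 135. The lowest member was Hmox1, the haem oxygenase induced by oxidants, with 6.74 ± 1.65 FPKM. GC3 had the lowest value for 15 of the 19, beside the 65.5% of all ranked genes at 100 FPKM or more, though not for Gpx3 and Prdx5, which were highest there. Of the metallothioneins, which bind zinc and cadmium, Mt1 had 191, 157 and 166 FPKM and Mt2 6.99, 4.69 and 4.35, while Mt3 was under 1 FPKM in at least 1 sample.

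The nephron is described from the glomerulus onward, by lists of genes known to mark each segment. List values are medians over expressed members, averaged over the samples, and stand beside the median of 5.10 FPKM of all ranked genes. As expression at 1 FPKM in every sample selects which members enter, the number left out is given with each.

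Podocyte genes were present at moderate levels. Of 13 genes 9 were expressed, with a median of 9.61 ± 2.47 FPKM (8.36 without GC3) and a median rank of 2580. Cdkn1c, a cell cycle inhibitor kept on in mature podocytes, was highest with 11.2, 15.8 and 25.9 FPKM, and the sialomucin Podxl followed with 14.2, 18.7 and 12.6. Npnt, a ligand of the glomerular basement membrane, had 13.8 ± 3.12 FPKM, the chloride channel protein Clic3 9.73 ± 2.29 and the transcription factor Tcf21 5.99 ± 2.56. Nphs1, which encodes nephrin of the slit diaphragm, was the lowest expressed member with 1.43, 1.94 and 1.95 FPKM. Wt1, Ptpro, Magi2 and Plce1 were under 1 FPKM in at least 1 sample, and for Wt1, the defining transcription factor of the podocyte, the values were 0.7798, 0.977 and 1.24.

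All 7 mesangial and juxtaglomerular genes were expressed (median 5.53 ± 2.14 FPKM; 4.32 without GC3). Ren1, the renin of the juxtaglomerular cells, had 24.1, 54.4 and 20.7 FPKM, and GC2 exceeded both other samples by a factor of over 2. Rgs5, a regulator of G protein signals in pericytes, had 13.5 ± 3.13 FPKM, Pdgfrb, the receptor of mesangial cells and pericytes, 7.06 ± 2.53, and desmin (Des) 5.53 ± 2.14. Gucy1a1, a subunit of the nitric oxide receptor, had 3.05 ± 1.21 FPKM, Akr1b7 2.003 ± 0.834 and the integrin Itga8, the lowest member, 1.86 ± 0.579.

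Averaged over the samples, proximal tubule genes had the highest median of the nephron lists. In GC1 alone the 3 expressed thin limb genes of 6 had a higher median, 103 FPKM. All 22 genes known from the whole length of the proximal tubule were expressed, 16 of them in the top 10% of ranked genes, and their median rank was 293.5. The median was 87.1, 142 and 74.6 FPKM in GC1, GC2 and GC3 (mean 101 ± 35.8; 115 without GC3). GC3 had the lowest value for 17 of the 22, beside 65.5% of all ranked genes with a mean of 100 FPKM or more. Besides Miox and Slc34a1, the list held Slc27a2, a fatty acid transporter and acyl-CoA synthetase, with 556, 600.3 and 353 FPKM. Ass1, the argininosuccinate synthase by which the kidney makes arginine, had 439, 644 and 304 FPKM, and the organic cation transporter family member Slc22a18 409, 278 and 467. Slc22a18 differed from the enzymes in being highest in GC3. The lowest member was Cubn, the endocytic receptor cubilin, with 13.4, 12.7 and 7.39 FPKM. Its partner megalin, Lrp2, had 36.4, 34.4 and 29.5 FPKM and is named outside the rule for naming, having been chosen after its values were seen.

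Within the proximal tubule, genes of the early part (S1) were less abundant than those of the middle (S2) and straight (S3) parts. Of 8 S1 genes 7 were expressed, with a median of 15.7, 18.8 and 8.39 FPKM. The glucose transporter Slc5a2 (SGLT2), target of the gliflozins, had 30.5, 25.5 and 37.3 FPKM and was highest in GC3, and the neutral amino acid transporter Slc6a19 had 32.9, 28.8 and 26.7. Slc4a4, the basolateral sodium bicarbonate cotransporter, had 17.8, 23.6 and 7.93 FPKM and was lowest in GC3. Slc7a7 had 14.5 ± 5.08 FPKM, the glucose carrier Slc2a2 10.4 ± 2.62, Slc7a8 9.63 ± 2.46 and the lactate transporter Slc5a12 7.95 ± 0.360. Adra1a, an adrenergic receptor, stayed under 1 FPKM in each sample (mean 0.269).

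The 5 S2 genes, all transporters of organic anions, cations or dicarboxylates, had medians of 84.3, 85.7 and 65.4 FPKM and all ranked in the top 10%. Slc22a2, an organic cation transporter, had 114, 118 and 105 FPKM, Slc22a6 (OAT1) 84.3, 85.7 and 73.05 and Slc22a8 (OAT3) 57.4, 66.4 and 65.4. Those 3 varied little. The dicarboxylate transporter Slc13a3 had 49.3 ± 6.81 FPKM. All 9 S3 genes were expressed with medians of 74.3, 74.6 and 63.6 FPKM. Acy3 led, then Slc7a13, the aspartate and glutamate carrier of the straight part, with 385, 252 and 261 FPKM. The amino acid transporter Slc6a18 had 105, 74.6 and 116 FPKM. Slc22a7 (OAT2) had 79.4 ± 17.3 FPKM and Atp11a 56.6 ± 9.93. Cyp7b1, an oxysterol hydroxylase, had 108, 88.99 and 35.0 FPKM, and the glucose transporter Slc5a1 (SGLT1), lowest of the list, had 11.2, 13.2 and 4.63. For both, GC3 was lower than GC1 and GC2 by a factor of over 2. Over the S1, S2 and S3 lists the medians without GC3 were 17.3, 85.0 and 74.5 FPKM. Averaged over all 3 samples they were 14.3, 78.5 and 70.8 FPKM. By transcript length, which is described at the end, these averages were 34.9, 80.3 and 118, so the size of the gap depends on the length used.

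**Figure D3:**
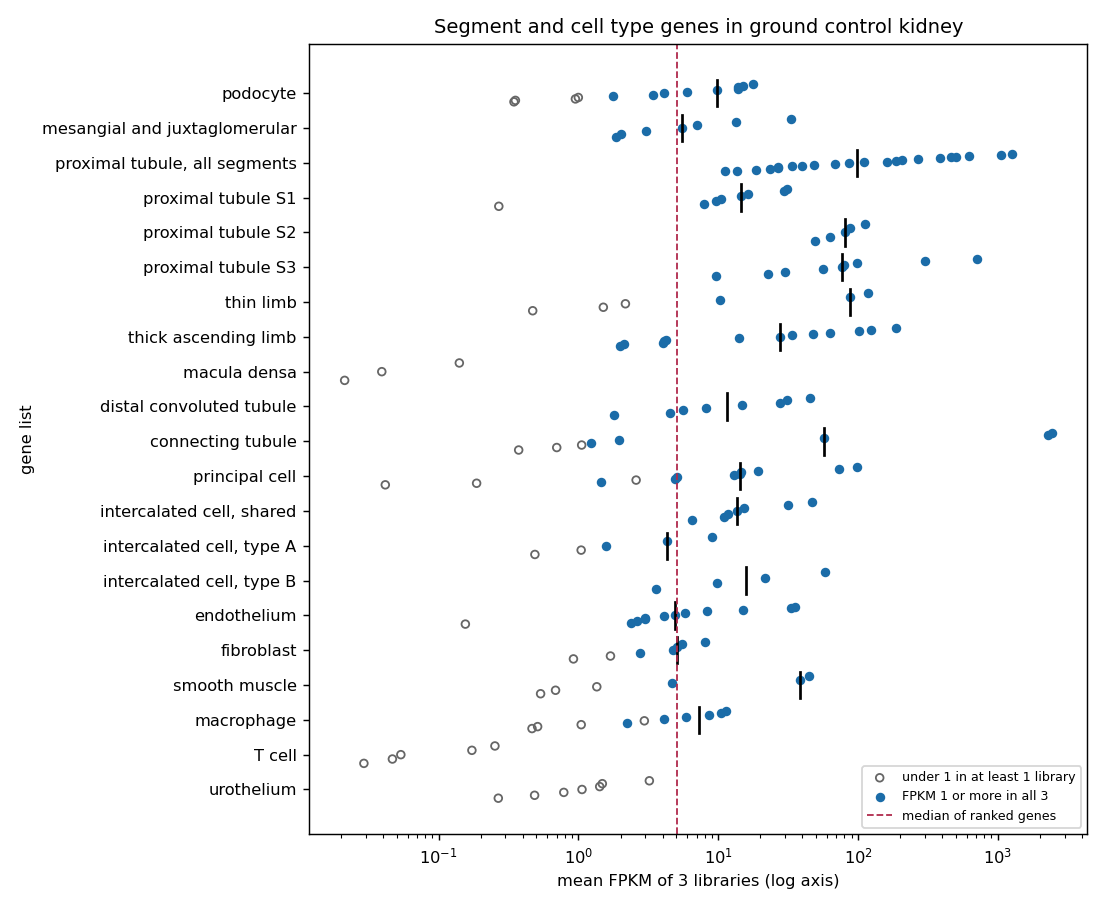
Mean FPKM of 3 libraries (log axis) of each member of 21 segment and cell type lists; filled points reached 1 FPKM in all 3 libraries, open points did not, black bars are medians of filled points and the dashed line is the median of ranked genes (5.10). Proximal tubule genes lie furthest right as a list, the connecting tubule has S100g and Klk1 far above its other members, and no macula densa, T cell or urothelium gene is filled.

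Genes of glucose synthesis and of bicarbonate handling were also high. Fbp1, the fructose bisphosphatase, had 277, 226 and 115 FPKM and Pck1, the carboxykinase that commits to glucose synthesis, 77.8, 184 and 70.0, the first highest in GC1 and the second in GC2. Slc37a4, which carries glucose 6-phosphate into the endoplasmic reticulum, had 50.1 ± 12.1 FPKM, pyruvate carboxylase (Pcx) 47.3 ± 18.7 and G6pc, which releases free glucose, 30.7 ± 2.83. The scaffold Slc9a3r1 had 86.7 ± 24.4 FPKM, the carbonic anhydrases Car2 and Car4 76.5 ± 21.97 and 50.9 ± 9.92, and the apical exchanger Slc9a3 (NHE3) 13.4 ± 2.58. Of the sodium pump that drives all of this transport, Fxyd2, the regulatory gamma subunit, had 396, 432 and 386 FPKM. Atp1b1, a beta subunit, had 99.4, 147 and 46.7 FPKM. Fxyd2 was even while Atp1b1 was lowest in GC3. The other beta subunits Atp1b2 and Atp1b3 had 3.303 and 23.7 FPKM.

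In the loop of Henle, of 6 thin limb genes 3 were expressed, with medians of 103, 90.2 and 53.1 FPKM (96.8 without GC3). Among them the water channel Aqp1, which the proximal tubule shares, had 166, 134 and 53.1 FPKM and the small heat shock protein Cryab 103, 90.2 and 67.6. Both were lowest in GC3. The urea transporter gene Slc14a2 of the inner medulla had 0.835, 4.79 and 0.885 FPKM and Sptssb 0.281, 3.59 and 0.6502, both highest in GC2, while Fst stayed under 1 in each sample.

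All 13 thick ascending limb genes were expressed, with medians of 27.9, 35.2 and 20.5 FPKM (31.5 without GC3). Umod, which encodes uromodulin, the most abundant protein of normal urine, had 254, 219.9 and 85.4 FPKM. Slc12a1 (NKCC2), target of loop diuretics, had 118, 82.8 and 106 FPKM. Umod was thus lower in GC3 than in either other sample by a factor of over 2, whereas Slc12a1 was lowest in GC2. Ppp1r1a, a phosphatase inhibitor, had 123 ± 21.4 FPKM, the growth factor precursor Egf 47.6 ± 10.3 and the claudin Cldn10 33.9 ± 12.1. The lowest member was the calcium-sensing receptor Casr, with 2.23, 1.34 and 2.40 FPKM. None of the 3 macula densa genes (Nos1, Ptgs2 and Pappa2) reached 1 FPKM in any sample.

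In the distal convoluted tubule all 8 genes were expressed with medians of 12.1, 12.1 and 10.3 FPKM. Slc12a3 (NCC), the thiazide target, had 49.2, 32.5 and 54.3 FPKM and was lowest in GC2. Kl, the FGF23 coreceptor klotho, had 29.5, 37.3 and 26.6 FPKM, and the kinase Wnk4, which regulates Slc12a3, 31.5, 19.8 and 31.9. The calcium buffer parvalbumin (Pvalb) had 14.8 ± 3.16 FPKM, Wnk1 8.15 ± 1.25 and the ubiquitin ligase adaptor Klhl3 5.57 ± 1.25. The magnesium channel Trpm6, lowest of the list, had 2.35, 1.74 and 1.33 FPKM.

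The connecting tubule list held the 2 very abundant genes S100g and Klk1, Calb1 at rank 509, and members near or under the threshold. Calb1, the calcium buffer calbindin-D28k, had 58.7, 67.03 and 45.3 FPKM. The calcium channel Trpv5 had 1.93, 2.54 and 1.38 FPKM, and the calcium pump Atp2b1, lowest of the expressed members, 1.01, 1.32 and 1.37. Slc8a1, Trpv6 and Atp2b4, which also move calcium, were under 1 FPKM in at least 1 sample. The 5 expressed members of 8 had a median of 57.0 ± 10.99 FPKM (62.9 without GC3).

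Principal cells of the collecting duct take up water and sodium. Of 12 of their genes 9 were expressed. The list medians of 13.5, 12.99 and 12.8 FPKM lay close together on the deposited scale (mean 13.1 ± 0.346, and 13.2 without GC3). They did not after rescaling over genes outside the mitochondrial genome, where the mean was 44.6 ± 9.77. Aqp2, the water channel that vasopressin inserts into the apical membrane, had 91.1, 105 and 98.7 FPKM, and the basolateral Aqp3 13.5, 17.9 and 12.6. Hsd11b2, the enzyme that protects the mineralocorticoid receptor from glucocorticoids, had 53.1, 65.03 and 100.5 FPKM, and Fxyd4, a pump regulator, 14.8, 12.99 and 29.8. Both were highest in GC3. The epithelial sodium channel subunits Scnn1a and Scnn1b had 14.3 ± 1.796 and 13.03 ± 3.94 FPKM, and Nr3c2, the mineralocorticoid receptor, was lowest with 1.29, 1.43 and 1.62. Aqp4 had 4.53, 2.46 and 0.773 FPKM, falling under the threshold in GC3. Avpr2, the vasopressin receptor upstream of Aqp2, had 0.125, 0 and 0 FPKM, and Elf5 stayed under 1 in each sample.

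Intercalated cells secrete acid or base. All 7 genes shared by their types were expressed, with medians of 13.4, 11.7 and 15.96 FPKM. The ammonia channel Rhcg had 36.5, 36.6 and 67.3 FPKM, the proton pump subunits Atp6v1g3 31.4 ± 1.83, Atp6v1b1 15.2 ± 4.42, Atp6v0d2 11.7 ± 3.43 and Atp6v0a4 11.1 ± 0.5703, and the lineage factor Foxi1 13.5 ± 2.37. Rhbg was lowest with 6.54 ± 0.904 FPKM. Of 5 genes of the acid-secreting type A cell 3 were expressed: Aqp6 with 9.02 ± 2.88 FPKM, the anion exchanger Slc4a1, which red blood cells also use, with 3.57, 5.79 and 3.57, and Kit with 1.58 ± 0.561. Slc26a7 and Dmrt2 were under 1 FPKM in at least 1 sample. All 4 genes of the base-secreting type B cell were expressed, and all 4 were highest in GC3, beside 37.95% of all ranked genes. Slc4a9 had 32.7, 25.5 and 117 FPKM and Slc26a4, the chloride-bicarbonate exchanger pendrin, 17.4, 20.4 and 27.1. The insulin receptor-related receptor Insrr, an alkali sensor, had 7.402, 4.06 and 17.8 FPKM and Hmx2 3.39, 2.35 and 5.06. The type B median was 15.7 ± 5.87 FPKM, and 12.3 without GC3.

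The endothelial, fibroblast and macrophage lists had medians of 4.73, 4.90 and 7.13 FPKM when averaged over the samples, beside the 5.10 of all ranked genes. Of 12 endothelial genes 11 were expressed, with a median of 4.73 ± 0.985 FPKM (4.61 without GC3). Plvap, of fenestral diaphragms, had 35.5 ± 9.15 FPKM, endoglin (Eng) 32.9 ± 9.53, Egfl7 15.1 ± 5.41, Emcn 8.298 ± 2.19, the angiopoietin receptor Tek 5.78 ± 1.94 and Pecam1 4.91 ± 1.24. Flt1 was lowest with 2.37 ± 0.468 FPKM, and Vwf stayed under 1 in each sample. Fibroblast genes, 5 of 7 expressed, had medians of 1.73, 6.24 and 6.74 FPKM and were low in GC1. Their mean was 4.90 FPKM, and 3.99 without GC3. The mean over all 3 samples became 20.4 when reads were divided by transcript length, which is described at the end. Dcn, a matrix proteoglycan, had 3.74, 9.86 and 10.3 FPKM and the collagen gene Col1a1 1.61, 6.24 and 8.77. All 5 were lowest in GC1, beside 23.0% of all ranked genes. Of 6 smooth muscle genes 3 were expressed. The actin gene Acta2 had 21.9, 54.1 and 38.6 FPKM, lowest in GC1 and highest in GC2. The myosin light chain Myl9 had 34.5, 54.2 and 45.04 FPKM in the same order, and Actg2 was at 0 except in GC2. Macrophage genes, 6 of 10 expressed (median 7.13 ± 1.03 FPKM; 6.59 without GC3), were led by Csf1r, the receptor that keeps macrophages alive (11.4 ± 2.91 FPKM), and by the complement gene C1qa (10.4 ± 1.71). Adgre1, Cd68, Mrc1 and Cx3cr1 were under 1 in at least 1 sample. No T cell gene of 5 and no urothelial gene of 7 passed. Of 7 B cell genes the immunoglobulin constant regions Ighm and Igkc passed, with 4.301 ± 0.8301 and 6.86 ± 1.04 FPKM.

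The label of kidney was checked against genes of neighbouring or carried-over tissue. Nothing of the adrenal cortex was expressed, with Cyp11b1, Cyp11b2 and Cyp21a1 at 0 in all samples, and nothing of skeletal muscle, with Ckm and Myh4 at 0. Of 5 exocrine pancreas genes 4 were at 0 in all samples, and Cela1 had 34.2 ± 4.89 FPKM. Of 7 hepatocyte genes 4 were expressed, among them the retinol carrier partner Ttr with 48.3 ± 4.63 FPKM and Serpina1a with 27.4 ± 22.3, while albumin (Alb) had 1.302 ± 0.299. Apoa1, Fgb and Ahsg stayed under 1 in each sample. Red blood cell genes varied. Hba-a1 had 227, 330.1 and 997 FPKM and Hbb-bs 170.2, 253 and 441, and all 4 expressed globin genes were highest in GC3. Hba-a1 and Hba-a2, and Hbb-bs and Hbb-bt, are near-identical copies whose reads may be split between them. Adipocyte genes were high in GC2. Adipoq, the fat hormone adiponectin, had 0.335, 19.7 and 0.331 FPKM, and Cidec, a lipid droplet protein, 0.526, 19.7 and 0. The brown fat uncoupler Ucp1 had 1.19, 15.7 and 0 FPKM. The 6 adipocyte genes summed to 4.34, 332 and 9.78 FPKM in GC1, GC2 and GC3. The 7 urothelial genes summed to 2.62, 21.2 and 2.36 FPKM, and each of the 7 was highest in GC2. The part of such tissue in the other values of GC2 was not tested.

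The male sex of the mice was visible in the Y-linked genes Ddx3y, Eif2s3y and Uty, with 9.83 ± 3.75, 6.39 ± 0.943 and 1.41 ± 0.241 FPKM, and Xist had 0.00233 FPKM at most. All 7 genes of a male-biased kidney list were expressed. After Kap, Cyp4b1 had 538, 459.5 and 238 FPKM, Cyp2d9 83.2, 57.96 and 34.3, Cyp2j13 27.2, 18.6 and 14.1, Slco1a1 12.4, 12.6 and 10.6 and Acsm3 6.03, 14.8 and 3.72. Cyp4a12a was lowest, with 11.8, 4.59 and 4.601 FPKM. Of 4 genes of a female-biased list, 2 were expressed. Cyp2a4 had 280.4, 219.8 and 134 FPKM, highest in GC1 and lowest in GC3, and Cyp4a14 had 24.1, 39.5 and 4.32, with GC3 again lowest. Slc7a12 and Prlr were under 1 in at least 1 sample. Cytochrome P450 genes of such families are close in sequence, and their single values are uncertain.

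Among transporters, 216 of 371 Slc genes were expressed, 6 of them in the first 100 ranks and 37 in the first 1000. They held 2.55% ± 0.15 of ranked FPKM. Slc34a1, Slc27a2 and Slc22a18 led them. Of 11 aquaporins 6 were expressed, and of 33 claudins 10 were, with the tight junction genes Cldn10 (33.9 ± 12.1 FPKM), Cldn2 (30.4 ± 13.2) and Cldn8 (9.36 ± 3.69) highest. Of 100 Cyp genes 32 were expressed, led by Cyp4b1, by Cyp2e1 (449, 414 and 194 FPKM) and by Cyp2j5 (229, 309 and 136), all lowest in GC3. The glucuronosyltransferases were led by Ugt2b38 with 205 ± 49.2 FPKM, and the aldo-keto reductases by Akr1c21 and Akr1a1, with 439.9 ± 90.4 for the latter.

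Hormones and receptors covered the whole range of levels. Besides Klk1, Umod, Egf, Ren1 and Kl, the secreted or shed proteins included Ace (12.04 ± 2.78 FPKM), and Igf1 was the lowest expressed (1.39 ± 0.361). Epo, made by rare interstitial cells in hypoxia, was at 0 in all samples, and Cyp27b1, the vitamin D activating enzyme, was under 1 FPKM in GC1 and GC3 (0.379, 1.25 and 0.958). Of 16 receptors 12 were expressed. Pth1r, by which parathyroid hormone lowers phosphate uptake, was highest with 208, 137 and 188 FPKM. The growth hormone receptor Ghr had 49.9, 45.97 and 20.2 FPKM, the vitamin D receptor Vdr 15.7 ± 3.55, the angiotensin receptor Agtr1a 8.73 ± 0.692, the thyroid hormone receptor Thra 5.42 ± 0.936 and Igf1r 4.94 ± 0.482. Esr1, Prlr and Lepr joined Avpr2 under the threshold in at least 1 sample.

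Of 22 transcription factors that pattern or maintain the nephron, 16 were expressed. Hnf4a, of the proximal tubule, had 58.6, 46.7 and 39.7 FPKM. The bile acid receptor Nr1h4 had 33.6 ± 3.08 FPKM, Esrra, which drives mitochondrial genes, 30.9 ± 2.44, Tfcp2l1 of the collecting duct 15.1 ± 2.03 and Foxi1 13.5 ± 2.37. Pax2 was lowest of those expressed, with 2.52 ± 0.747 FPKM. Ppara, Tfap2a, Grhl2, Elf5 and Wt1 were under 1 in at least 1 sample.

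Because the series concerns endoplasmic reticulum stress, the resting level of its genes is given. All 18 chaperone and degradation genes were expressed, with medians of 17.3, 22.2 and 12.6 FPKM, and 13 of the 18 were lowest in GC3, beside 61.2% of all ranked genes with a mean of 10 FPKM or more. GC2 was highest for 15 of the 18, beside 44.3% of ranked genes at that level. After rescaling over genes outside the mitochondrial genome GC2 was highest for 16, beside 52.4%. After rescaling over all genes it was again highest for 16, beside 66.3%. P4hb, a disulfide isomerase, had 162, 193 and 125 FPKM, the calcium-binding chaperone Calr 98.1, 151 and 92.6 and the isomerase Pdia3 69.7, 106 and 53.7. Herpud1 had 75.3, 55.03 and 35.1 FPKM, the master chaperone Hspa5 (BiP) 39.8, 50.2 and 28.4 and Canx 47.9, 50.7 and 19.1. Hyou1 was lowest with 2.74, 4.91 and 2.92 FPKM. The sensors and regulators were lower, and their list medians were more even on the deposited scale, with 3.899, 3.48 and 3.81 FPKM over 6 expressed genes of 8. After rescaling over genes outside the mitochondrial genome their mean was 12.6 ± 2.46, against 60.9 ± 26.2 for the chaperone list. All 6 were then lowest in GC3, beside 76.4% of all ranked genes. As deposited, the factor Atf4 had 29.1, 26.5 and 33.9 FPKM, highest in GC3. Xbp1, which the sensor IRE1 splices, had 23.9, 25.3 and 20.1 FPKM, lowest there. Ddit3 (CHOP) had 5.76, 3.802 and 5.55 FPKM, its target Ppp1r15a 1.49, 3.16 and 2.08, and the sensor Atf6 2.04, 2.13 and 1.02. The sensor kinase Eif2ak3 (PERK) had 1.501, 1.60 and 1.29 FPKM. The sensor Ern1 (IRE1) stayed under 1 in each sample (0.811, 0.746 and 0.749), as did Trib3.

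Of 8 genes known to rise in injured tubules 4 were expressed. Havcr1, which encodes the injury marker KIM-1, had 0.756, 0.379 and 0.435 FPKM, and Lcn2 (NGAL) 0.431, 1.496 and 0.731. Vcam1 and Timp1 were also under 1 in at least 1 sample. Spp1, which encodes osteopontin and is made by resting distal nephron as well, had 223, 355 and 208 FPKM, clusterin (Clu) 50.3, 62.5 and 34.7, and the simple-epithelium keratins Krt8 and Krt18 34.7 ± 3.17 and 13.8 ± 3.65. Of 13 immediate early genes 8 were expressed, led by Ier3 (22.6, 9.27 and 16.6 FPKM) and Ier2 (9.27 ± 1.09), with Klf6 lowest (2.25 ± 0.5902). Fos had 0.153, 0.586 and 1.24 FPKM.

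Several clock genes were high or low in GC1. Of 15, 7 were expressed. Dbp, an output gene driven directly by the clock, had 23.3, 9.15 and 4.61 FPKM and its relative Tef 33.8, 14.8 and 22.6, both highest in GC1. Hlf had 7.85, 4.97 and 5.496 FPKM and the repressor Nr1d2 13.4, 8.24 and 6.96, with GC1 again highest, but Nr1d1 was highest in GC2 (10.1, 14.1 and 8.88). Of the negative limb, Per1 had 4.42, 1.33 and 3.26 FPKM. Per2 had 3.62, 0.827 and 2.09 FPKM and Per3 2.72, 0.778 and 1.07. Each Per gene was highest in GC1 and lowest in GC2. Of the positive limb, Arntl had 0.164, 0.516 and 0.8498 FPKM and Npas2 0.0322, 0.741 and 0.553, both lowest in GC1. The labels give a cycle of light and dark but no hour of sampling, and its part in these values was not tested.

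Between the 3 samples, the typical ranked gene had an SD of 0.30 in log2 FPKM, or a CV of 20.3%. Counting of reads alone would give 0.08 at the median. Over expressed genes of all classes the median SD was 0.31, and over GC1 and GC2 without GC3 it was 0.17. Spread changed only slightly with level. It was 0.29 for the 1208 genes between 1 and 2 FPKM, 0.32 for the 3144 between 2 and 5, 0.30 for the 1918 between 5 and 10, 0.28 for the 1944 between 10 and 50, 0.25 for the 271 between 100 and 1000, and 0.20 for the 10 above. Over the same ranges the counting error fell from 0.12 to 0.01. GC3 was the sample farthest from the other two for 53.6% of ranked genes. Among the 2523 genes with a mean of 10 FPKM or more it was lowest for 61.2% and highest for 21.5%, and its median log2 difference from the mean of GC1 and GC2 was -0.25, against -0.05 over all ranked genes. An SD above 1 in log2 was found for 97 ranked genes.

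**Figure D4:**
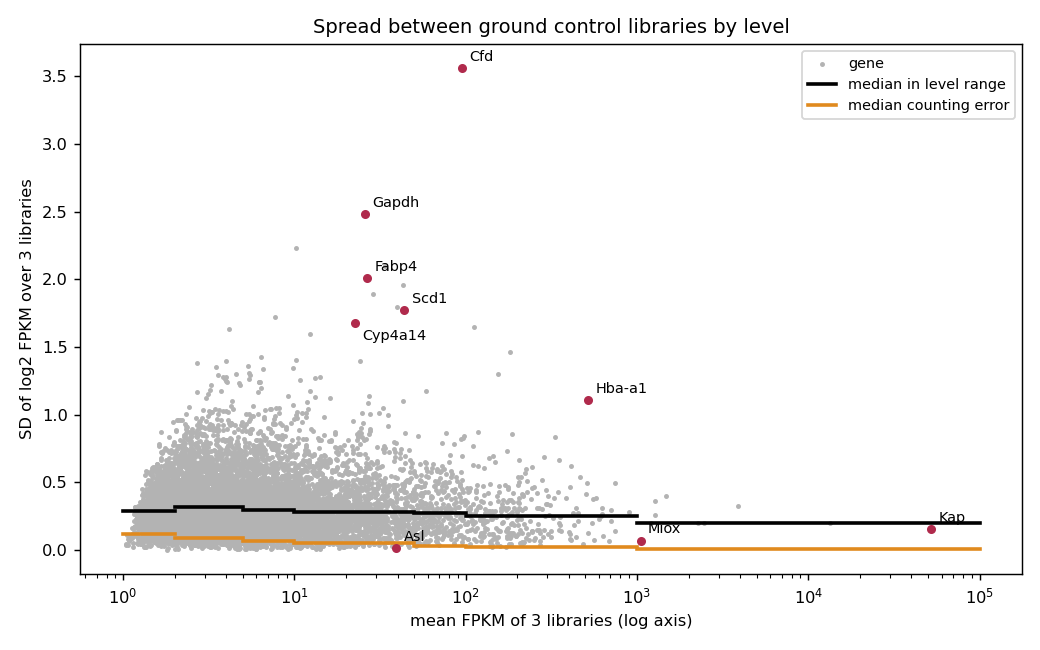
SD of log2 FPKM over 3 libraries against mean FPKM (log axis) for each ranked gene, with the median of each level range (black) and the median expected from counting reads alone (orange). The black line stays between 0.20 and 0.32, above the orange line at every level, and a few named genes such as Cfd and Gapdh lie far above it.

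The 10 least even genes with a mean of 10 FPKM or more fell into those high in GC2, those high in GC3 and others. Cfd, the complement factor adipsin that fat secretes, had 2.23, 273 and 9.31 FPKM (SD of log2 3.56). Fabp4, the fatty acid binding protein of adipocytes, had 5.38, 67.7 and 7.02 FPKM, Car3, a carbonic anhydrase of fat and muscle, 9.63, 108 and 11.03, and the desaturase Scd1 13.6, 106 and 11.8. All 4 were highest in GC2, the sample with the adipocyte genes. Sprr1a, of squamous and stressed epithelium, had 1.02, 19.9 and 9.52 FPKM and the interferon-induced Ifi27l2a 7.44, 89.0 and 22.1, also highest in GC2. Gm21887 on X had 5.28, 10.3 and 85.4 FPKM and Gm47283 on Y 5.85, 9.81 and 70.4, both highest in GC3. The fatty acid hydroxylase Cyp4a14 was lowest in GC3.

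Gapdh, a glycolytic enzyme often used to normalise other genes, had 23.97, 1.93 and 51.8 FPKM, the next largest spread among these 10 (SD of log2 2.48). GC2 was lower than GC1 by a factor of over 10, with 191 reads against 1928. Gapdh has many processed pseudogenes that share its sequence, so its level here is uncertain. The part of such copies in the difference between samples was not tested.

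At the other end were 10 genes whose values in the 3 samples nearly coincided. Nudt14, a sugar nucleotide hydrolase, had 13.4, 13.2 and 13.4 FPKM (SD of log2 0.01) and the small GTPase Rab20 13.96, 13.98 and 14.2. The urea cycle enzyme Asl, which acts after Ass1, had 39.1, 39.9 and 39.2 FPKM, in contrast to Ass1 itself, whose highest value was over 2 times its lowest. The lysosomal enzyme Naglu had 12.7, 13.02 and 12.8 FPKM and the amyloid precursor relative Aplp2 47.1, 46.96 and 45.8. Mbd2, Cutal, Rpl7l1, Gatb and Spag7 completed the 10, with means of 18.2, 10.8, 14.1, 10.6 and 22.5 FPKM. Evenness over 3 samples describes these samples and the deposited scale only.

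Several lists were high or low in 1 sample for most of their members. On the deposited scale GC1 was lowest for 8 of 9 podocyte genes, 6 of 7 mesangial and juxtaglomerular genes and 9 of 11 endothelial genes. It was also lowest for all 3 smooth muscle, all 5 fibroblast and all 4 globin genes, beside 23.0% of all ranked genes. Besides the mitochondrial, red blood cell and type B intercalated cell lists, interferon-stimulated genes were high in GC3, with medians of 2.72, 3.37 and 6.52 FPKM and 6 of 7 expressed members highest there, beside 37.95% of all ranked genes. Irf7, a factor that amplifies interferon responses, had 2.48, 3.37 and 8.15 FPKM, Isg15 2.72, 3.59 and 6.52 and Ifit3 4.74, 6.27 and 7.64, while Bst2 was highest in GC2 (14.5, 18.3 and 13.96). In the other direction, all 4 expressed genes of antigen presentation by MHC class II were lowest in GC3, with medians of 39.9, 39.2 and 20.6 FPKM, and Cd74, the invariant chain, had 86.8, 81.6 and 57.97. The proximal tubule, antioxidant and chaperone lists were lowest in GC3 as given above, as most abundant genes were. GC2 was highest for 15 of 18 chaperone genes and 5 of 6 expressed sodium pump genes. It was highest for 44.3% of ranked genes with a mean of 10 FPKM or more. For the lists high in GC3, the counts depended on the scaling. After rescaling over genes outside the mitochondrial genome, GC3 was highest for all 13 mitochondrial genes, all 4 globin genes, 3 of 4 type B genes and 4 of 7 interferon-stimulated genes. After rescaling over all genes it was highest for 12, 2, 2 and 0 of these. Of all ranked genes, GC3 was highest for 11.2% under the first rescaling and 0.876% under the second. All 5 fibroblast genes were lowest in GC1 under the first rescaling and 4 under the second, beside 8.20% and 1.57% of all ranked genes. Under the first, GC1 was lowest for 6 of 9 podocyte genes and 5 of 7 mesangial and juxtaglomerular genes. It was lowest there for 4 of 11 endothelial and 2 of 3 smooth muscle genes. Under the second these counts were 2, 2, 0 and 0. All 4 MHC class II genes were lowest in GC3 under both, beside 76.4% and 95.9% of all ranked genes. GC3 was also the sample with the highest mitochondrial share, the highest ribosomal RNA share and the fewest nuclear reads. The part of these in the lists was not tested.

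**Figure D5:**
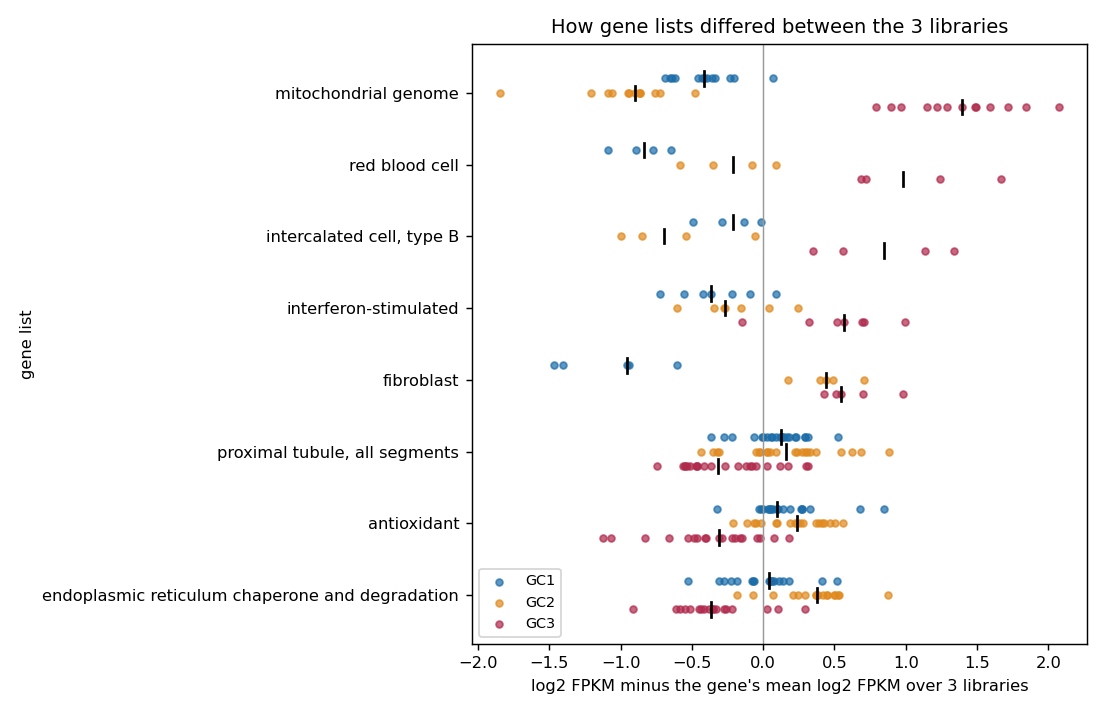
Difference of log2 FPKM in each library from the gene's mean over the 3 libraries, for the expressed members of 8 lists, with the median as a black bar. GC3 (red) lies right of GC1 and GC2 for mitochondrial, red blood cell and type B intercalated cell genes and left of them at the median for proximal tubule, antioxidant and chaperone genes on the deposited scale, and fibroblast genes are low in GC1 (blue).

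Ranks depend on the length by which reads are divided. The deposited gene length was at the median 1.79 times the median length of the gene's protein-coding transcripts. It was over 2 times that length for 3750 of the 8793 ranked genes. With transcript length in its place, 7 of the first 10 genes, 16 of the first 25 and 66 of the first 100 stayed in those lists. Fxyd2 moved from rank 42 to rank 6 and Spink1 from rank 7 to rank 51, while Slc12a3 moved from 635 to 409 and Lrp2 from 835 to 488. The median of the 22 proximal tubule genes was 137 FPKM on that scale, against 101 as deposited.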

How the data were processed

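Kidney RNA of 3 ground control samples was analysed. The authors deposited 1 table of FPKM for 54532 genes with gene lengths in bases. The submitters' processing notes name the tools CASAVA, cutadapt and HISAT2 and the build mm10, and neither their versions nor a read counter were found in the labels. When an FPKM was multiplied by the gene's length and by 1 constant per library, it came out as whole reads (tolerance 0.01) in 100% of cases. The constant is not the library total (11485217 to 15141784 reads). FPKM did not sum alike between libraries, with 377926, 347096 and 843094 over all genes in GC1, GC2 and GC3. The 3 libraries differed from each other by more than counting noise, so none was counted as a second copy of another, which says nothing of whether they came from separate animals.

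Genes at 1 FPKM or more in all 3 libraries were kept. Protein-coding nuclear genes were ranked by mean FPKM, and SDs of log2 FPKM had no pseudocount. The expected counting error came from the recovered reads. Coordinates are mm10. Promoters came from the RefSeq table on GRCm38.p6, taking the start nearest the deposited 5′ end, and transcripts from GENCODE mouse release 21, which is on the same assembly. Python 3.11.15, numpy 2.4.6, pandas 2.3.3, scipy 1.17.1 and matplotlib 3.10.9 were used, and the code was tested on simulated data.

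The genes named were the 25 most abundant, the leading genes of other classes, up to 6 highest members of each list with its lowest and those left out, the 10 least and 10 most even, and the leading members of symbol families, except some that are not reported here. The members and lists were chosen with earlier results of these data known. No test was run, since 1 group was described. Alternatives covered each replicate left out, scaling, gene classes, thresholds, pseudocounts and, chosen after seeing the data, transcript length, all nuclear gene classes and the order of samples within lists after rescaling.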

Additional observations from a re-analysis of the deposited data

How the results depend on the processing

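Depth limits low genes most, since 1 FPKM at the median gene length stood for 44.3 to 97.0 reads. No paired analysis was possible because 1 group was described and nothing was compared. The number of expressed genes was 9792 to 9983 with each replicate left out and 3916 at a threshold of 5 FPKM. All other thresholds and scalings tried kept it within 1.5 times of 9467. The share of the 10 most abundant genes was 35.4%, 33.2% to 37.0% with each replicate left out, 16.1% when counted in reads, 55.7% with the mitochondrial genome, 43.6% over all nuclear gene classes and 26.2% by transcript length. The last 2 were chosen after seeing the data. The median SD of log2 FPKM was 0.31 over expressed genes of all classes and 0.17 to 0.32 with each replicate left out, 0.17 being the value without GC3. It was 0.73 after rescaling each library to a common total over all genes and 0.44 over genes outside the mitochondrial genome. The median of proximal tubule genes was 101 FPKM and 80.9 to 115 with each replicate left out. It was 243 and 355 after rescaling to a common total over all genes and over genes outside the mitochondrial genome, which changes the unit, and 137 by transcript length. Of 36 other list medians, 3 moved by over 1.5 times when a replicate was left out. Without GC3 the mitochondrial genes went from 9043 to 4145 FPKM and the red blood cell genes from 235 to 142, and without GC1 the hepatocyte genes went from 15.4 to 9.01. By transcript length 19 of the 36 moved by over 1.5 times, and after rescaling over genes outside the mitochondrial genome, which changes the unit, all 36 did.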
